A study of Mus musculus with 2 samples.

Results

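The genes described here are 9 components of the Hedgehog pathway that receive the ligand or act on its transcription factors: Ptch1, Smo, Gli1, Gli2, Gli3, Sufu, Hhip, Boc and Cdon. They were taken as every probe set whose annotation names a single member gene, which gave 24 probe sets for the 9 genes, out of 34945 probe sets naming a single gene and 18194 genes in all. RNA came from primary osteoblasts, cells that lay down bone, which had been prepared from calvariae (the roof of the skull) of C57BL/6 mice aged 5 days. The labels do not say how many animals a culture held. After a night without serum, 1 culture spent 6 h in serum-free medium with 4 mM phosphate and 1 culture spent 6 h in the same medium with 1 mM phosphate, the control, both at pH 7.2. The extra phosphate was added as sodium phosphate. Each condition had 1 Affymetrix array, so no replicate error exists, no test between the conditions was possible, and every difference below describes these 2 arrays.

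Hedgehog ligands are secreted proteins that bind the receptor PTCH1, with CDON and BOC as co-receptors. PTCH1 without ligand keeps the membrane protein SMO inactive. Active SMO gathers in the primary cilium, an antenna-like organelle, and frees the GLI transcription factors from their inhibitor SUFU. Ptch1, Hhip and Gli1 are themselves switched on by GLI proteins and serve as readouts of the pathway. In bone, Indian hedgehog from cartilage cells promotes the formation of osteoblasts, and Gli1 marks progenitor cells, including those of the skull sutures.

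Relative to the control, 7 of the 9 genes had a lower signal in 4 mM phosphate, or 8 with the arrays scaled to added spike RNAs or with the median of each gene's probe sets, and most differences were small. Gli2 was the only member past 2-fold, with a signal 2.33-fold lower in phosphate. Cdon and Hhip were 1.73-fold and 1.60-fold lower, Gli3 was 1.65-fold higher, and the other members lay within 1.5-fold. In counts, 1 of 9 members was at least 2-fold lower, where 2.92% of 12276 measured genes were, and 0 of 9 were at least 2-fold higher, where 2.3% of measured genes were. The count of lower members was 0 of 9 with the median of each gene's probe sets, and 4 of 9 with the arrays scaled to the spikes, where 1732 measured genes were at least 2-fold lower. At 1.5-fold, 3 of 9 members were lower against 12.1% of measured genes, and 1 of 9 was higher against 7.26%. The median log2 ratio (phosphate minus control) was −0.47 over the 9 members and −0.06 over all measured genes. A ratio below 0 was found for 7 of 9 members and for 55.9% of measured genes. With the arrays scaled to the spikes it was found for 8 of 9 members and for 11011 of 12276 measured genes. With the median of each gene's probe sets it was found for 8 of 9 members and for 6737 of 12276 measured genes.

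The values are MAS5 signals, brightness in arbitrary units on a linear scale. Signals under 21.5, the median of both arrays together, were raised to that floor, and a gene counted as measured where a probe set exceeded it on at least 1 array. Each gene is represented by its brightest probe set. For the 9 members the other probe sets are given beside it. The only error available is technical: different probe sets for a single gene varied in log2 ratio with a standard deviation (SD) of 0.42 at dimmer signals of up to 100, 0.26 from there to 400, and 0.16 at brighter ones. This SD holds no variation between arrays or cultures, so a ratio given as a multiple of it is not a test of the phosphate difference. Of the 24 member probe sets, 17 were above the floor on both arrays, 2 on 1 array and 5 on neither.

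**Figure D1:**
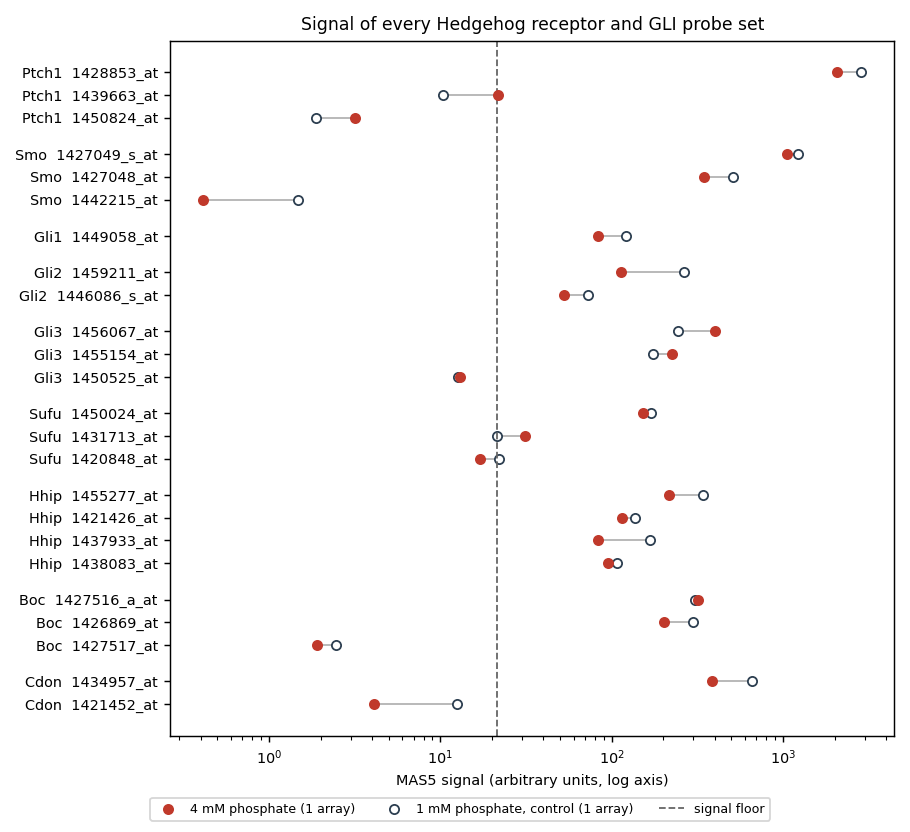
Signal of all 24 member probe sets on a log axis in arbitrary units, with the phosphate array filled and the control array open, and the floor of 21.5 dashed. Most pairs right of the floor have the phosphate point on the left, and both pairs of Gli3 run the other way.

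Markers of the labelled cell type and of others were found. All 7 osteoblast markers with a probe set of their own were above the floor on both arrays, among them Col1a1 and Ibsp, which encode bone matrix proteins. Macrophage and osteoclast markers were also present, 10 of 10 above the floor on both arrays, as were 8 of 8 chondrocyte markers and 5 of 5 markers of suture mesenchyme, while all 5 endothelial markers were at the floor. The authors' scaling gave both arrays the same trimmed mean signal, and 51.0% of probe sets on the phosphate array and 49.0% on the control array exceeded the floor. Poly-A spikes, RNAs added before labelling, had 24 probe sets, and each was brighter on the phosphate array (median log2 ratio 0.46). The 18 probe sets of a second kind of control, the hybridisation spikes, were also all brighter on that array (median log2 ratio 0.23). Setting the poly-A spikes equal lowers every log2 ratio by 0.46, to a median of −0.93 for the members and −0.52 for all measured genes. Because that shift is the same for every gene, the members' median minus that of all measured genes was necessarily −0.41 under both scalings. With the median of each gene's probe sets it was −0.34.

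Promoter sequences from RefSeq (GRCm38.p6) were matched for 7 of the 9 genes, all but Gli1 and Boc. The 250 bases upstream of the start are shown for the GLI-responsive genes Ptch1 and Hhip, and for Gli2 and Gli3, the members with the lowest and the highest ratio. Sequences run 5′ to 3′ on the gene's strand, and capitals mark GC boxes, matches on either strand to GGGCGG, a motif bound by SP-family factors.
Ptch1, chr13:63565736-63565985, minus strand: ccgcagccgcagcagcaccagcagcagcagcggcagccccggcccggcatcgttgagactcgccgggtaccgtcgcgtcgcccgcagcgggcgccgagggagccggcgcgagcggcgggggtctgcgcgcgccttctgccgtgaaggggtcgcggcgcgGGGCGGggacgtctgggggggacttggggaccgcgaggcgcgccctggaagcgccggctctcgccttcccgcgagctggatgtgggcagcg
Hhip, chr8:80058009-80058258, minus strand: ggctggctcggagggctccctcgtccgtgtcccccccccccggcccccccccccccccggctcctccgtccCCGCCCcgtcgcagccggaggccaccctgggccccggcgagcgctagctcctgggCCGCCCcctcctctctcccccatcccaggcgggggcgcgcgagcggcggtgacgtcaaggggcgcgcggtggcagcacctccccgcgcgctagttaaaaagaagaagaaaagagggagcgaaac
Gli2, chr1:119053620-119053869, minus strand: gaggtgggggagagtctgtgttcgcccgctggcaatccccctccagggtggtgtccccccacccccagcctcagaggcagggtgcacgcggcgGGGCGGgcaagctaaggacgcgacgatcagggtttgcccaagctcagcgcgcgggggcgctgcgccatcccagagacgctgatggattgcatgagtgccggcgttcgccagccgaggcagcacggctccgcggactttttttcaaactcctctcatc
Gli3, chr13:15463473-15463722, plus strand: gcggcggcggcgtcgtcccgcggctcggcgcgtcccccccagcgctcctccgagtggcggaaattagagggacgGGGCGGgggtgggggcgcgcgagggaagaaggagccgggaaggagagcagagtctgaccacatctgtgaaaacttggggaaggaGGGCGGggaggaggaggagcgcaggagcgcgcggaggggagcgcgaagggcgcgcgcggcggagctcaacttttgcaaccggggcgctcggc
The GLI consensus GACCACCCA had no match on either strand in the 300-base windows (250 upstream, 50 downstream of the start) of any of the 7 members, and 0.253% of all 32851 windows held it. A GC box was present in the 250 upstream bases of 5 of the 7, against 32.7% of all windows. These upstream stretches had a GC content of 78.4% for Ptch1, 76.0% for Hhip, 67.2% for Gli2 and 72.8% for Gli3. It was 68.4% for Smo, 54.0% for Sufu and 42.8% for Cdon, where the median over all windows was 52.4%. A match is a feature of these letters, and its absence says only that the letters are not in this window.

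Among the receptors, Ptch1, the ligand's receptor and a GLI target, had a signal of 2071 on the phosphate array and 2869 on the control array with probe set 1428853_at. That is a log2 ratio of −0.47, about 3 times the SD of 0.16 for probe sets this bright (−2.92 SD). Its other probe sets carried little signal: 1439663_at gave 21.8 in phosphate and 10.4 in the control, and 1450824_at was at the floor on both arrays. The lower Ptch1 signal in phosphate therefore rests on a single bright probe set.

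Smo, the signal transducer held back by PTCH1, had signals of 1052 in phosphate and 1218 in the control on 1427049_s_at, a log2 ratio of −0.21. Its second probe set, 1427048_at, gave 348 in phosphate and 513 in the control, or −0.56, and both cite the same source sequence. Both were lower in phosphate, the first by little more than the SD for its signal level. The remaining Smo probe set was at the floor on both arrays.

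The co-receptors differed from each other. Cdon had a signal of 383 in phosphate and 662 in the control on 1434957_at, a log2 ratio of −0.79, or 3 times the SD for its signal level (−3.06 SD). Only 6.17% of measured genes had a lower ratio, and the other Cdon probe set was at the floor on both arrays. Boc gave 318 in phosphate and 306 in the control on 1427516_a_at, a log2 ratio of 0.05. On 1426869_at Boc gave 203 in phosphate and 297 in the control, a log2 ratio of −0.55, so the 2 probe sets of Boc do not give a common direction. Another co-receptor, Gas1, was chosen for mention after its values were seen, and its 3 probe sets were all brighter in phosphate. The brightest gave 3795 in phosphate and 2996 in the control, a log2 ratio of 0.34. The next gave 948 in phosphate and 847 in the control, a ratio of 0.16. The ratio of 1.08 on the dimmest came from 46.1 in phosphate and 21.8 in the control, the latter next to the floor.

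Hhip encodes a membrane protein that binds Hedgehog ligands and keeps them from PTCH1, and it is a GLI target. It had 4 probe sets that exceeded the floor on each array, more than any other member, and all 4 were dimmer in phosphate. The brightest, 1455277_at, gave 215 in phosphate and 343 in the control, a log2 ratio of −0.68. Probe set 1437933_at gave 83.7 in phosphate and 168 in the control, a signal 2.01-fold lower. The smallest difference was that of 1438083_at, with 94.7 in phosphate and 108 in the control and a ratio of −0.18. The last, 1421426_at, gave 115 in phosphate and 138 in the control with a ratio of −0.26, so the direction was shared and the size was not.

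**Figure D2:**
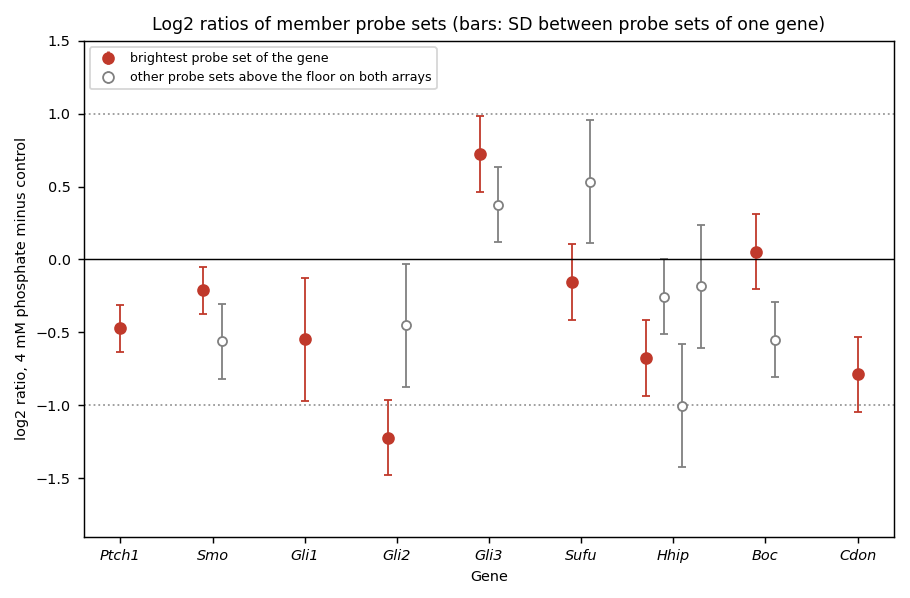
Log2 ratio (phosphate minus control) of the 17 member probe sets that exceeded the floor on each array, the brightest of each gene in red and the others open. Bars are the SD between probe sets of one gene at that signal level, and dotted lines mark 2-fold. Gli2 lies at −1.22 and −0.45, Gli3 at 0.72 and 0.38.

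The 3 GLI transcription factors did not share a direction. Gli1, an activator and the classic target of the pathway, had 1 probe set, with a signal of 83.2 in phosphate and 122 in the control. Its log2 ratio of −0.55 was 1.3 times the SD of 0.42 for such dim probe sets (−1.30 SD).

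Gli2, the main activator that responds first to SMO, gave 114 in phosphate and 266 in the control on 1459211_at, a log2 ratio of −1.22. Only 1.24% of measured genes had a lower ratio. Its second probe set, 1446086_s_at, gave 53.0 in phosphate and 72.4 in the control, a ratio of −0.45 that is close to the SD for its signal level. Both cite the same source sequence, so they are not independent readings, and with the median of both the ratio was −0.84.

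Gli3, whose shortened form is the main repressor of the pathway, was the only member whose measured probe sets were all brighter in phosphate. Probe set 1456067_at gave 400 in phosphate and 242 in the control, a log2 ratio of 0.72, and 4.77% of measured genes had a higher ratio. Probe set 1455154_at gave 226 in phosphate and 174 in the control, a ratio of 0.38. With the arrays scaled to the spikes, a shift of −0.46, this second probe set falls below 0 and the first stays above it. The arrays measure total Gli3 transcript and not the balance of full-length and shortened protein. The remaining Gli3 probe set was at the floor on both arrays.

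Sufu, which binds GLI proteins and restrains them, was nearly equal on the 2 arrays. Its brightest probe set, 1450024_at, gave 152 in phosphate and 169 in the control, a log2 ratio of −0.15 that is smaller than the SD for its signal level. The dim probe set 1431713_at gave 31.2 in phosphate and 21.6 in the control, a ratio of 0.53 next to the floor, and 1420848_at gave 17.1 in phosphate and 22.1 in the control. No direction can be read for Sufu.

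Counting only the 17 probe sets that exceeded the floor on each array, 6 members had only lower ones, 1 had only higher ones and 2, Sufu and Boc, had both. Among 11188 genes with at least 1 such probe set, 5278 had only lower ones and 3908 had only higher ones. Of the 6 members with at least 2 such probe sets, 3 (Smo, Gli2 and Hhip) had all of them lower and 1 (Gli3) had all of them higher. Among 4954 genes with at least 2 such probe sets, all were lower for 32.3% and all were higher for 27.3%.

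Little ligand signal was measured. Shh and Dhh were at the floor on both arrays, and Ihh, the ligand of cartilage, gave 88.8 in phosphate and 115 in the control, a log2 ratio of −0.38 within the SD for dim probe sets. Of 10 genes of ligand release and reception, 6 were measured. At 2-fold, 1 was higher and 0 were lower, against 2.3% and 2.92% of all measured genes. The median log2 ratio was 0.23, or −0.23 with spikes set equal. Scube3, a secreted protein of the SCUBE family, was 2.17-fold higher from dim signals of 62.4 in phosphate and 28.7 in the control, and it was within 2-fold with a pseudocount in place of the floor or with spikes set equal. Disp1, which releases the ligands from the cells that make them, had a ratio of 0.55, although its second probe set gave −0.39. Hhat, the enzyme that attaches a fatty acid to the ligands, and Scube2 were lowest, at −0.18 and −0.15, although the second probe set of Hhat, with signals of 31.7 in phosphate and 23.0 in the control, gave 0.46.

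Regulators of SMO and GLI proteins centred on the median of all genes. Of 22 listed, 21 were measured and 0 were past 2-fold in either direction. Of all measured genes, 2.3% were at least 2-fold higher and 2.92% lower. At 1.5-fold, 1 regulator was lower, against 12.1% of measured genes, and the median log2 ratio of the regulators was −0.08. The highest were Ulk3, a kinase of GLI proteins, at 0.58 and the arrestin gene Arrb1 at 0.39, each from 1 dim probe set. Ulk3 had signals of 51.4 in phosphate and 34.4 in the control, and Arrb1 70.8 in phosphate and 53.9 in the control. The SD for such dim probe sets was 0.42. The lowest were Iqce, part of a ciliary complex that acts downstream of SMO, at −0.75 with dim signals of 30.4 in phosphate and 51.2 in the control, and Ankmy2, which acts on ciliary cyclic AMP signalling, at −0.45. The other probe sets of Iqce gave −0.33 and, with the control at the floor, at least 0.33, and the 3 probe sets of Ankmy2 ranged from −0.45 to −0.27.

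Genes that build the cilium lay lower as a group, like most of the receptors and GLI factors. Of 33 listed, 30 were measured and 28 of these had a ratio below 0, against 55.9% of all measured genes. The median log2 ratio was −0.52. At 2-fold, 4 of 30 were lower and 0 were higher, and at 1.5-fold, 13 of 30 were lower and 0 were higher, against the background shares of 2.92% and 12.1% for lower genes. The 4 genes past 2-fold became 2 with a pseudocount, where 172 of 12276 measured genes were at least 2-fold lower. They became 14 with spikes set equal, where 1732 of 12276 were, since that setting lowers every ratio. Among all genes whose dimmer signal lay between the floor and 100, 22.3% were at least 1.5-fold lower, and between 100 and 400, 12.4% were.

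The cilium genes past 2-fold were Ift122, Dync2li1, Ift172 and Ift88. Ift122, a subunit of the IFT-A complex that carries cargo back to the cell body, had signals of 136 in phosphate and 350 in the control, a log2 ratio of −1.37, and its second probe set gave −0.65. Dync2li1, a chain of the motor for that return transport, had signals of 184 in phosphate and 474 in the control, a ratio of −1.36 from 1 probe set. Ift172 and Ift88, subunits of the IFT-B complex that moves cargo towards the tip, had ratios of −1.19 and −1.11, Ift172 with signals of 63.7 in phosphate and 145 in the control and Ift88 with 44.4 in phosphate and 95.7 in the control. The 2 cilium genes above 0 were Ttbk2, a kinase that starts cilium growth, at 0.21 and Ift20, an IFT-B subunit also found at the Golgi, at 0.15. For 11 cilium genes with at least 2 such probe sets, all were lower for 7, none had all higher and 4 were mixed.

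**Figure D3:**
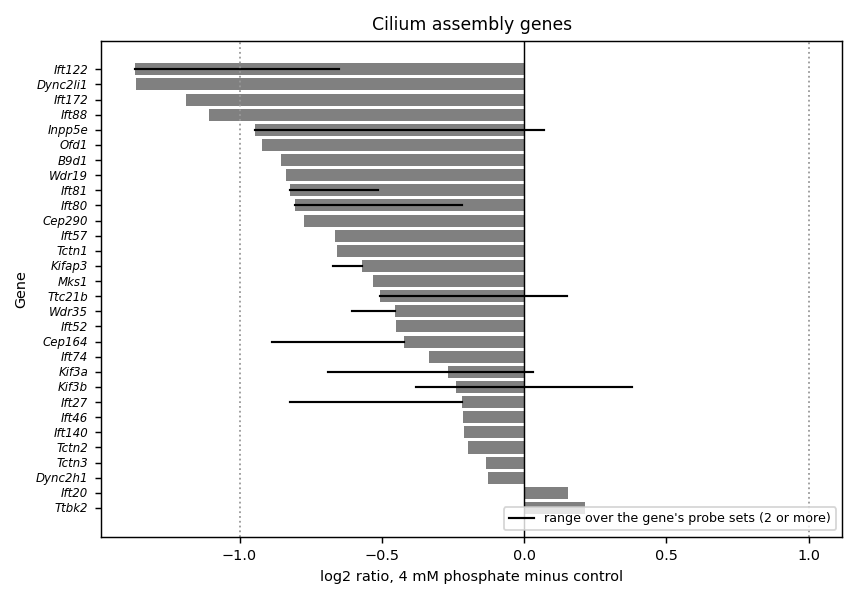
Log2 ratio (phosphate minus control) of the 30 measured cilium assembly genes, with bars from 0 for the brightest probe set and black lines for the range over probe sets where 2 or more exceeded the floor on each array. Dotted lines mark 2-fold. Ift122, Dync2li1, Ift172 and Ift88 pass −1, and 2 genes lie above 0.

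Other known Hedgehog target genes went both ways. Of 12 listed, 8 were measured, 1 was at least 2-fold higher, 1 was at least 2-fold lower and the median log2 ratio was −0.13. Of all measured genes, 2.3% were at least 2-fold higher and 2.92% lower. Among genes whose dimmer signal lay between the floor and 100, these shares were 3.83% and 7.04%. Mycn, a growth-promoting transcription factor, had signals of 28.8 in phosphate and 82.5 in the control, a ratio of −1.52 from dim values. Ccnd1, the cyclin D1 gene, had signals of 2192 in phosphate and 3941 in the control, and its 3 probe sets had ratios from −0.96 to −0.82. Snai1 and Foxc2, transcription factor genes of mesenchymal cells, were higher, with ratios of 1.06 and 0.77. Snai1 had signals of 167 in phosphate and 80.5 in the control, and Foxc2 had 516 in phosphate and 302 in the control. With a pseudocount or with spikes set equal Snai1 was within 2-fold. A floor at the 65th percentile (70.4) lay above the phosphate signal of Mycn. Its ratio there was within 2-fold but only a bound, so it does not show a smaller difference. Each of these genes also answers to other signals.

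Markers of other cell types were set beside these lists. Macrophage and osteoclast markers had a ratio below 0 for 9 of 10 genes, against 55.9% of all measured genes. Their median log2 ratio was −0.55, with a summed signal of 15652 in phosphate and 17027 in the control. The lowest were Aif1 at −0.80, Mrc1, the mannose receptor gene, at −0.79 and Cd68 at −0.66, and the highest were Ctsk, the cathepsin K gene of osteoclasts, at 0.10 and Lyz2, the lysozyme gene of macrophages, at −0.03. Without Lyz2 and Ctsk, a choice made after their values were seen, the summed signal of the other 8 was 3531 in phosphate and 5035.5 in the control. Chondrocyte markers had a median of 0.00, with a summed signal of 11133 in phosphate and 11842 in the control, and suture mesenchyme markers a median of −0.05. Osteoblast markers had a median of 0.11, with a summed signal of 70509 in phosphate and 56477 in the control. Of the 7 measured, 3 had a ratio below 0, Sp7 at −0.39, Pth1r at −0.24 and Alpl at −0.19. The other 4 were above 0, Col1a1 at 0.23, Col1a2 at 0.21, Ibsp at 0.11 and Dmp1. Dmp1, a matrix protein gene of maturing osteoblasts and osteocytes, was 2.85-fold higher, with signals of 15708 in phosphate and 5505 in the control. It made the largest single difference to the summed signal. The part of macrophages or other cells in the lower signals of Hedgehog and cilium genes was not tested, and in RNA from a mixed culture fewer cells of a type and less RNA per cell cannot be told apart.

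**Figure D4:**
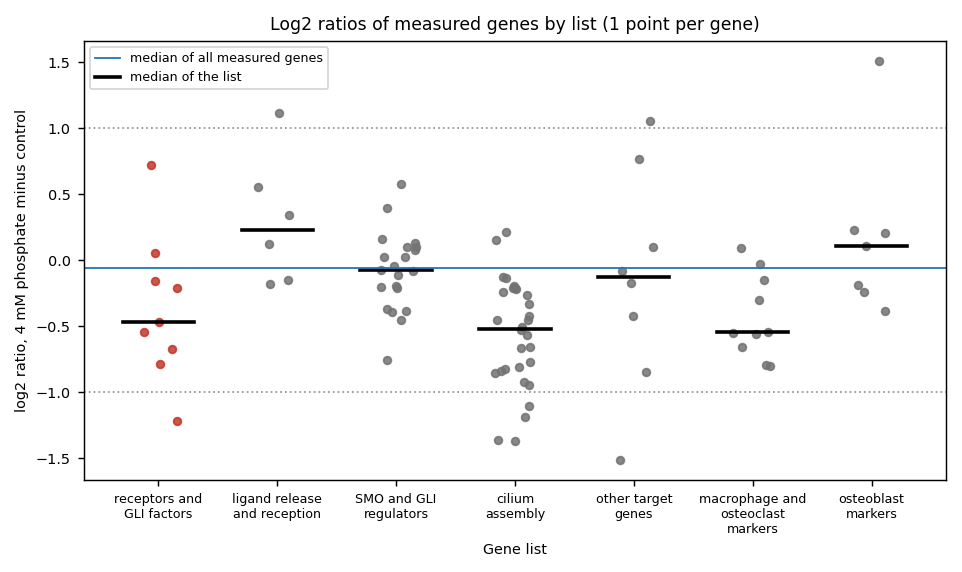
Log2 ratio (phosphate minus control) of each measured gene by list, with the list median in black, the median of all measured genes in blue and 2-fold dotted. The receptors and GLI factors (median −0.47), the cilium genes (−0.52) and the macrophage and osteoclast markers (−0.55) lie below the blue line at −0.06, and the regulators of SMO and GLI lie on it.

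Across the 8 processing alternatives Gli2 ranged from −1.68 to −0.84, Cdon from −1.25 to −0.73 and Hhip from −1.14 to −0.47, all on the lower side. Ptch1 ranged from −0.93 to −0.22, Gli1 from −1.01 to −0.45, Smo from −0.67 to −0.19 and Sufu from −0.62 to −0.04. Gli3 was on the higher side in each, although the spike shift of −0.46 takes its second probe set, at 0.38, below 0. Boc ranged from −0.41 to 0.12 with no settled direction. The floor settings left every member ratio unchanged by construction, and a pseudocount cannot change a sign.

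**Figure D5:**
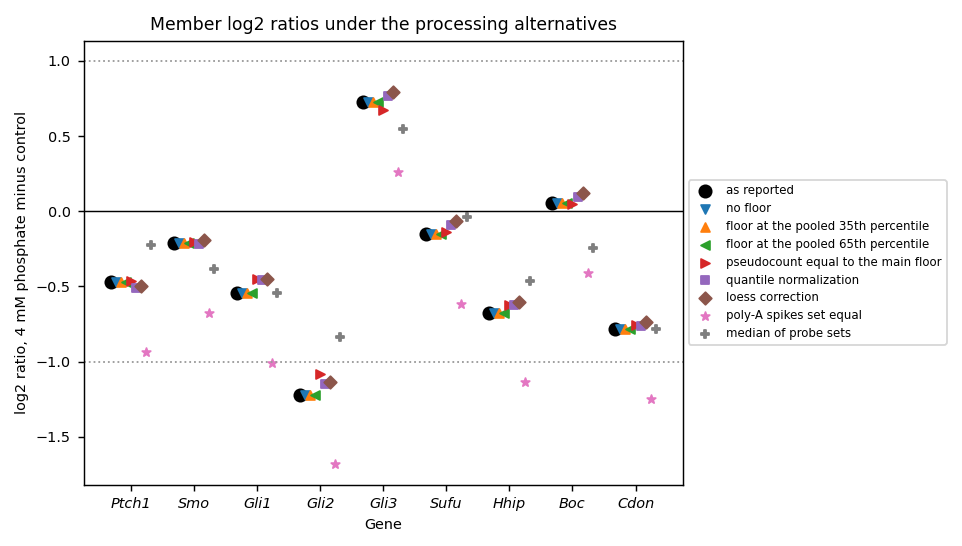
Log2 ratio (phosphate minus control) of each member as reported and under 8 processing alternatives. Gli3 stays above 0 in all of them, between 0.26 and 0.79, and Boc is the only member whose sign changes. Single dimmer probe sets are not drawn, and that of Gli3 at 0.38 falls below 0 with the spike shift of −0.46.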

How the data were processed

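Biotin-labelled cRNA from 100 ng of total RNA per culture was measured on Affymetrix arrays, as the labels' protocols state. The deposited values are intensity values made by the authors with MAS5 in GCOS 1.4, per the submitters' processing notes, and are linear, 1 signal per probe set. MAS5 scales each array as a whole, so a change of total mRNA per cell is hidden, and dim signals are noisy. Of 45101 probe sets, 64 were manufacturer's controls. Of the rest, 34945 named 1 gene, 932 several and 9160 none. Symbols were checked by Entrez identifier against RefSeq GRCm38.p6 (34741 found, 0 changed).

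Groups came from the labels. Signals under the pooled median (21.5) were raised to it before log2, and calculations used Python 3.11.15 with pandas 2.3.3, NumPy 2.4.6 and statsmodels 0.14.6, tested on simulated data. With 1 array per group, genes were counted by size of ratio. The number of arrays limits the precision. Members, gene lists and alternatives were chosen with earlier results of these data known. Every member could be named, and from each list the 2 highest, the 2 lowest and any gene past 2-fold. Gas1 and the GC box were chosen after the values were seen. Probe positions and detection calls were not used.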

Additional observations from a re-analysis of the deposited data

How the results depend on the processing

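The alternatives were a floor at the pooled 35th percentile, one at the 65th, no floor at all, a pseudocount of 21.5, quantile normalization, a loess correction, poly-A spikes set equal and the median of probe sets. Under the first 6, the 9 members kept their signs, 1 was at least 2-fold lower and their median stayed between −0.47 and −0.45. The changes of floor could not alter this. Each member's brightest probe set exceeded even the highest floor (70.4) on both arrays, so the ratios were identical. A pseudocount cannot change a sign. Only quantile normalization and the loess correction could have changed a sign here. With poly-A spikes set equal, 4 members were at least 2-fold lower, their median was −0.93, and Gli2 was at −1.68, Cdon at −1.25, Hhip at −1.14, Gli1 at −1.01 and Boc at −0.41. With the median of probe sets, 0 members were at least 2-fold lower, Gli2 was at −0.84, Ptch1 at −0.22, Smo at −0.39 and Boc at −0.25. The spike setting shifts every ratio by −0.46 by construction, and the median of probe sets takes in the other probe sets of a gene, dim or bright.

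For the other lists, poly-A spikes set equal gave medians of −0.84 for the ligands (Ihh alone), −0.23 for ligand release and reception, −0.54 for SMO and GLI regulators, −0.98 for cilium assembly and −0.59 for other target genes. Genes at least 2-fold lower then numbered 1 regulator, 14 cilium genes and 2 other targets, and 0 genes of ligand release and 0 other targets were 2-fold higher. The pseudocount left 2 cilium genes at least 2-fold lower and 0 genes of ligand release and 0 other targets 2-fold higher. The floor at the 65th percentile left 0 of 4 measured genes of ligand release 2-fold higher and 0 of 6 measured other targets 2-fold lower. As reported, 6 and 8 were measured. At that floor Scube3 was no longer measured and the ratio of Mycn was a bound, so these counts do not show smaller differences. Other targets at least 2-fold lower were 2 of 8 without a floor and 2 of 9 with the floor at the 35th percentile.

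Over all measured genes, 282 were at least 2-fold higher and 359 lower as reported, 538 and 556 without a floor, 570 and 582 with the floor at the 35th percentile, 184 and 165 at the 65th, 218 and 172 with the pseudocount and 129 and 1732 with spikes set equal. No paired analysis was possible because each condition has 1 array. Signals near the floor limit the smaller probe sets of Sufu and Ptch1.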
